A study of Homo sapiens with 12 samples.

Results

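The genes described here are 37 genes of glycolysis and of the response to low oxygen, taken from the 55765 genes with counts in T47D cells, an established human breast cancer line of luminal type with progesterone receptor. They are 16 glycolytic enzymes, 4 transporters of glucose or lactate, 9 genes known as targets of the hypoxia-inducible factors (HIF), and 8 genes of oxygen sensing or of the HIF subunits. The libraries form 4 groups of 3. They are siPRMT1 cells with R5020, siPRMT1 cells with ethanol, siCT cells with R5020 and siCT cells with ethanol, where siPRMT1 is an siRNA against the arginine methyltransferase PRMT1 and siCT a nonspecific siRNA. R5020, a synthetic progestin, was given at 10 nM for 6 h, and ethanol, given for the same time, is its vehicle; the titles of the ethanol libraries read T0. All 12 libraries come from siRNA-treated cells grown in medium with serum and insulin, and the labels name no oxygen level, so none of the groups is a hypoxia treatment. The study asked whether PRMT1 is needed for the progestin response, and the question for these genes was whether core glycolytic enzymes and HIF targets moved alike across the 4 groups.

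Glycolysis splits glucose into pyruvate, and lactate dehydrogenase turns pyruvate into lactate. In well-oxygenated cells the HIF alpha subunits, HIF1A and EPAS1, are hydroxylated by the EGLN prolyl hydroxylases, bound by VHL and degraded. In low oxygen they persist, pair with ARNT and bind short DNA elements with the core ACGTG or GCGTG near genes of glucose uptake, glycolysis, mitophagy, blood vessel growth and collagen hydroxylation. The enzyme and transporter genes here can thus be HIF targets as well, and the classes are not exclusive. HIF activity is set mainly through the protein, which was not measured here.

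PRMT1 mRNA, the check of the knockdown, averaged 7.08 ± 0.258 CPM in siPRMT1 R5020 and 8.22 ± 0.268 CPM in siPRMT1 ethanol, against 42.9 ± 6.89 CPM in siCT R5020 and 37.5 ± 7.83 CPM in siCT ethanol (SD, n = 3). CPM is the count scaled to a library of 1000000 counts after TMM scaling. Total counts ranged from 26783525 to 34120937 per library. A pair of siCT libraries stood apart: the share of mitochondrial transcripts was 52.4% in siCT R5020 replicate 1 and 59.3% in siCT ethanol replicate 3, against 31.3% to 38.3% in the other 10. Replicates varied with a common biological coefficient of variation (edgeR) of 0.0753 in siPRMT1 R5020, 0.0464 in siPRMT1 ethanol, 0.212 in siCT R5020 and 0.325 in siCT ethanol. The main counts of genes called are therefore also given without this pair. The siCT groups then rest on replicates 1 and 2 of siCT ethanol and on replicates 2 and 3 of siCT R5020. The spread of siCT ethanol was not removed: the enzyme gene GAPDH still stood at 1305 and 833 CPM there, against 1085 and 1049 CPM in siCT R5020. The 10 luminal markers were all expressed, at a summed 12999 to 13871 CPM in siPRMT1 R5020, 17529.9 to 18077 CPM in siPRMT1 ethanol, 8562 to 9082 CPM in siCT R5020 and 10310.2 to 11912 CPM in siCT ethanol. The 9 markers of other cells found in the files summed to 39.9 to 43.5 CPM, 43.0 to 43.9 CPM, 76.5 to 93.4 CPM and 81.1 to 123 CPM in the same order of groups. The smooth muscle actin gene ACTA2 and the collagen gene COL1A1 made up nearly all of it, ACTA2 fell with siPRMT1 (log2 -2.68 ± 0.17, adjusted p = 2.26e-06 in ethanol and log2 -2.48 ± 0.17, adjusted p = 2.97e-06 in R5020), and without them the sum was 1.20 to 2.58 CPM per library. PTPRC, CD68, COL1A2 and ZEB1 had at most 6 counts in any library. The basal keratin gene KRT5 had 46, 25 and 25 counts in siPRMT1 R5020, 0, 0 and 0 in siPRMT1 ethanol, 1, 3 and 4 in siCT R5020 and 0, 0 and 0 in siCT ethanol, and was called higher with R5020 in siPRMT1 cells (adjusted p = 9.7e-05) and with siPRMT1 in R5020 (adjusted p = 0.00119). The part of ACTA2- or KRT5-expressing cells in the results below was not tested.

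Per length of merged exons, the enzymes held the highest levels. ALDOA, the aldolase of most tissues, was the highest of the 37 genes at a mean of 712 CPM per kb over the 12 libraries, followed by LDHA, the lactate dehydrogenase A subunit, at 403 CPM per kb, GAPDH at 398 CPM per kb, ENO1 at 296 CPM per kb and PKM at 145 CPM per kb. The order of LDHA and GAPDH is not separated by the spread between groups: LDHA lay above GAPDH in siPRMT1 R5020 and siPRMT1 ethanol and below it in siCT R5020 and siCT ethanol. HIF1A, the HIF-1 alpha subunit gene, came next at 70.3 CPM per kb, above PGAM1 at 56.2 CPM per kb. Of the HIF targets, BNIP3L at 38.0 CPM per kb and NDRG1 at 29.1 CPM per kb led. The alternative isozymes ENO2 and LDHB stood at 0.794 and 0.431 CPM per kb, and SLC2A3, a neuronal-type glucose transporter, at 0.0988 CPM per kb. CA9, carbonic anhydrase 9 and a classical hypoxia marker, had 0, 0 and 0 counts in siPRMT1 R5020, 1, 0 and 0 in siPRMT1 ethanol, 3, 2 and 2 in siCT R5020 and 2, 0 and 0 in siCT ethanol, and did not pass the filter on low counts. The other 36 genes were tested.

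With R5020 the HIF targets P4HA2, BNIP3 and NDRG1 rose for both siRNAs, as did the glucose transporter gene SLC2A1 and HIF1A. Over all 12 libraries 14 of 16 glycolytic enzymes in siPRMT1 cells and 15 of 16 in siCT cells were not called. In siPRMT1 cells 8 of the 36 tested genes rose and 1 fell (15.4% of all 17727 genes tested were called, 9.30% higher and 6.08% lower). In siCT cells 8 rose and 0 fell (13.0% of all genes called, 7.59% higher and 5.43% lower). Called means an adjusted p under 0.05 by the quasi-likelihood test of edgeR, Benjamini-Hochberg adjusted over every gene tested. HIF targets gave 4 of 8 tested higher and 0 lower in siPRMT1 cells, with a median log2 change of 0.80, and also 4 of 8 higher and 0 lower in siCT cells, with a median of 0.68. Glycolytic enzymes gave 1 of 16 higher and 1 lower in siPRMT1 cells, with a median of 0.15 that is -0.02 with library totals alone in place of TMM. In siCT cells they gave 1 of 16 higher and 0 lower, with a median of 0.23 that is 0.15 without the pair that stood apart. The median of all genes tested was -0.0036 in siPRMT1 cells and -0.0432 in siCT cells. With library totals alone 6 rose and 1 fell in siPRMT1 cells, and 5 rose and 1 fell in siCT cells. With the pair left out, 14 genes rose and 2 fell in siPRMT1 cells, where 29.1% of all genes tested were then called, and 11 rose and 3 fell in siCT cells, where 19.9% were. Calls thus became more frequent over all genes as well. Within the classes that fit gave 5 HIF targets higher and 0 lower with 4 enzymes higher and 1 lower in siPRMT1 cells, and 5 HIF targets higher and 1 lower with 1 enzyme higher and 1 lower in siCT cells. In the authors' deposited table, 33.6% of all genes passed an adjusted p of 0.05 with R5020 in siPRMT1 cells. Of the enzymes, ALDOA, LDHA, PFKP, TPI1, GAPDH, PGK1 and ENO1 were higher there, by log2 0.13 to 0.91, and PFKM was lower. The HIF targets P4HA2, BNIP3, NDRG1, VEGFA, BNIP3L and ADM were higher, by log2 0.28 to 2.51. An enzyme not called over all 12 libraries is thus not shown to be unchanged. The enzyme class can itself hold HIF targets, so the comparison does not set targets against other genes. No p is given for the difference between the classes. Their medians differed by 0.64 in siPRMT1 cells and by 0.44 in siCT cells. Leaving out 1 library gave 0.57 to 0.66 in siPRMT1 cells and 0.22 to 0.68 in siCT cells. Single libraries deviated from their group in the HIF target median minus the enzyme median with an SD of 0.41, pooled over the 4 groups. That SD is not the spread of a difference between groups, and it mixes the tighter siPRMT1 with the wider siCT libraries.

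**Figure D1:**
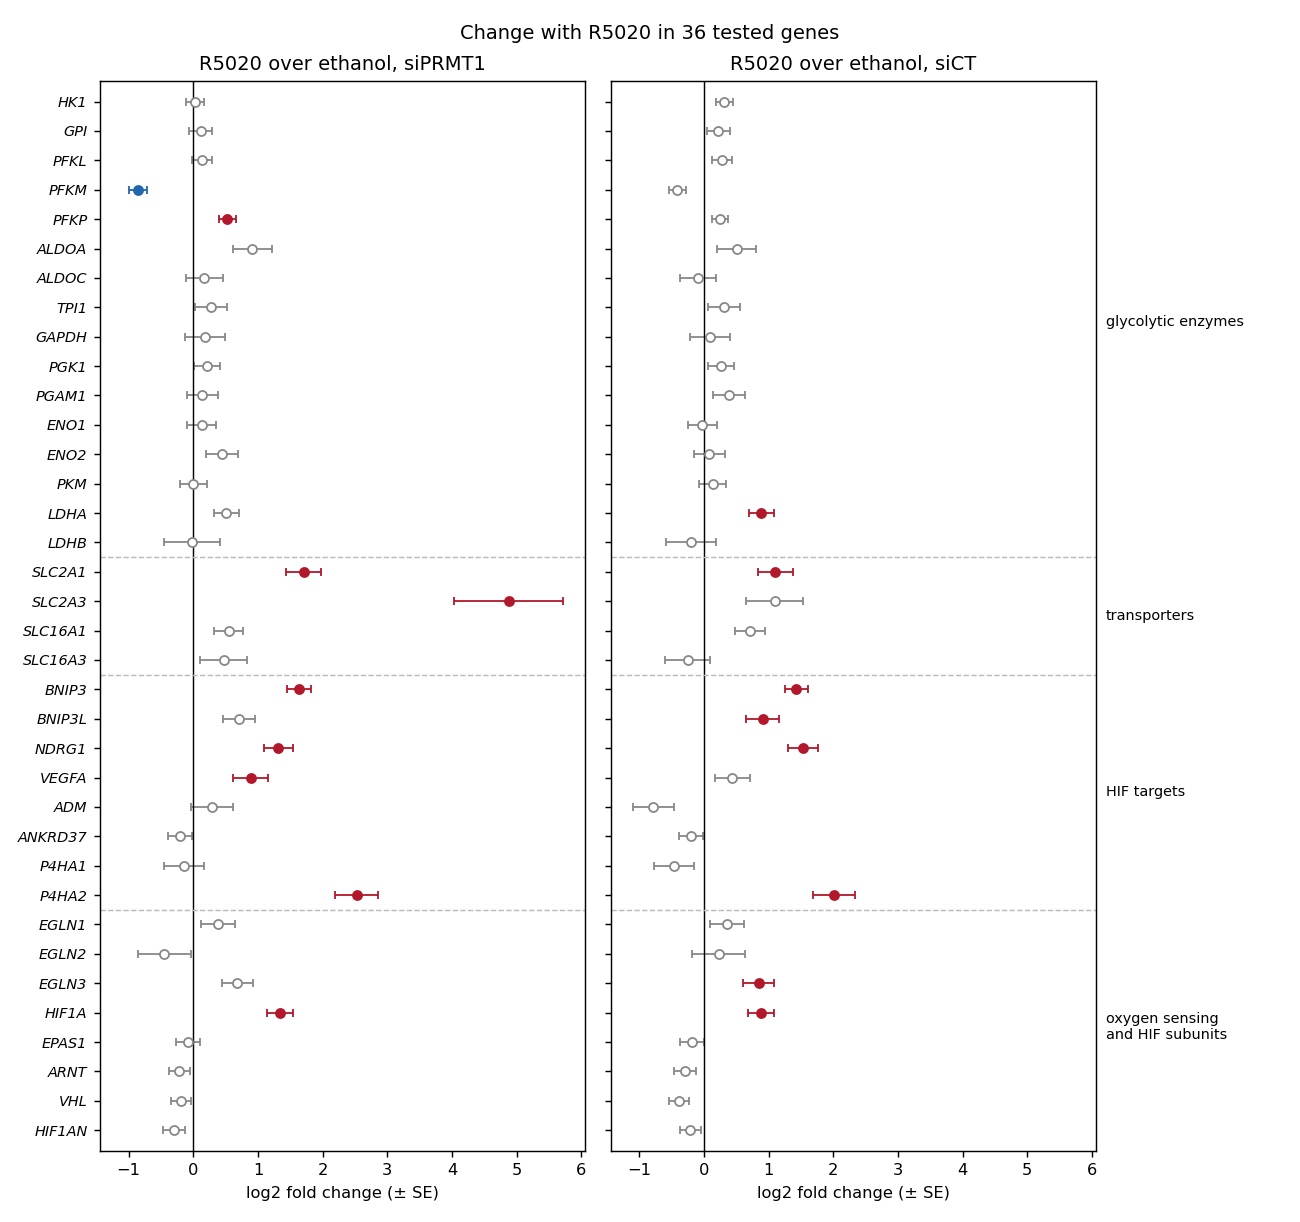
Log2 fold change of R5020 over ethanol with its standard error (horizontal axis) for the 36 tested genes (rows, by class), in siPRMT1 cells on the left and siCT cells on the right. Filled points passed an adjusted p of 0.05 (red higher, blue lower); P4HA2, BNIP3, NDRG1, SLC2A1 and HIF1A are filled on both sides, while 14 of 16 enzymes on the left and 15 of 16 on the right are open.

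P4HA2, a catalytic subunit of the prolyl 4-hydroxylase that modifies collagen, showed the largest rise of the HIF targets. P4HA2 stood at 126, 126 and 131 CPM with R5020 and at 21.7, 21.7 and 22.9 CPM with ethanol in siPRMT1 cells. siCT cells gave 215, 111 and 118 CPM with R5020 and 24.5, 26.0 and 59.9 CPM with ethanol. R5020 libraries lay above ethanol libraries without overlap for both siRNAs, and the highest library of both siCT groups was the one that stood apart. The increase was 5.77-fold in siPRMT1 cells (log2 change 2.53 ± 0.33 SE, adjusted p = 0.000124) and 4.04-fold in siCT cells (log2 change 2.01 ± 0.33 SE, adjusted p = 0.000806). P4HA1, the other major catalytic subunit and also a known HIF target, was not called in either (log2 -0.14 ± 0.31, adjusted p = 0.851 and log2 -0.46 ± 0.31, adjusted p = 0.412, in the same order). It stood at 21.9 to 29.1 CPM in siPRMT1 R5020, 26.1 to 29.6 CPM in siPRMT1 ethanol, 18.2 to 33.9 CPM in siCT R5020 and 19.0 to 53.3 CPM in siCT ethanol. The log2 ratio of P4HA2 to P4HA1, which does not depend on library scaling, was 2.36 ± 0.22 in siPRMT1 R5020 and -0.32 ± 0.05 in siPRMT1 ethanol, and 2.58 ± 0.10 in siCT R5020 and 0.12 ± 0.27 in siCT ethanol (SD, n = 3). The libraries that stood apart did not stand apart in this ratio, at 2.67 in siCT R5020 replicate 1 and 0.17 in siCT ethanol replicate 3.

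BNIP3 and its relative BNIP3L encode mitochondrial proteins that mark mitochondria for removal. BNIP3 stood at 45.8, 49.1 and 50.9 CPM with R5020 and at 15.5, 15.3 and 16.2 CPM with ethanol in siPRMT1 cells. siCT cells gave 34.6, 46.96 and 46.6 CPM with R5020 and 19.3, 16.6 and 11.5 CPM with ethanol. The groups did not overlap for either siRNA. BNIP3 rose 3.10-fold in siPRMT1 cells (log2 change 1.63 ± 0.18 SE, adjusted p = 3.34e-05) and 2.70-fold in siCT cells (log2 change 1.43 ± 0.18 SE, adjusted p = 0.000121). BNIP3L stood at 199, 221 and 212 CPM with R5020 and at 129, 128 and 132 CPM with ethanol in siPRMT1 cells. In siCT cells the values were 126, 173 and 192 CPM with R5020 and 85.7, 124 and 51.7 CPM with ethanol. R5020 libraries lay above ethanol libraries for both siRNAs, though in siCT cells the lowest R5020 library and the highest ethanol library were close, at 126 and 124 CPM. BNIP3L was called in siCT cells (log2 change 0.91 ± 0.25 SE, adjusted p = 0.0298) and not in siPRMT1 cells (log2 0.70 ± 0.25, adjusted p = 0.0834). Without the pair that stood apart it was called in both (log2 0.70 ± 0.12, adjusted p = 0.000713 in siPRMT1 cells and log2 0.79 ± 0.14, adjusted p = 0.00191 in siCT cells), and the call in siCT cells was lost without siCT R5020 replicate 2, siCT R5020 replicate 3 or siCT ethanol replicate 1, with library totals alone and in a fit on the siCT libraries alone.

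NDRG1 is a stress-responsive gene that HIF and several other factors induce. NDRG1 stood at 136, 119.6 and 132 CPM with R5020 and at 52.4, 52.9 and 50.4 CPM with ethanol in siPRMT1 cells. siCT cells gave 155, 219.7 and 199 CPM with R5020 and 91.4, 63.3 and 43.5 CPM with ethanol. Each siRNA's R5020 libraries were above its ethanol libraries. The rise was 2.49-fold in siPRMT1 cells (log2 change 1.31 ± 0.23 SE, adjusted p = 0.00116) and 2.89-fold in siCT cells (log2 change 1.53 ± 0.23 SE, adjusted p = 0.000413). The call in siPRMT1 cells was lost with library totals alone (adjusted p = 0.0778). VEGFA encodes the main growth factor of blood vessels. VEGFA stood at 75.9, 80.7 and 77.7 CPM with R5020 and at 42.0, 43.0 and 41.5 CPM with ethanol in siPRMT1 cells. The siCT libraries held 117, 68.8 and 61.7 CPM with R5020 and 51.7, 41.2 and 89.9 CPM with ethanol. In siPRMT1 cells the groups did not overlap, whereas in siCT cells the ethanol library that stood apart lay above 2 of the R5020 libraries. VEGFA was called in siPRMT1 cells (log2 change 0.89 ± 0.27 SE, adjusted p = 0.0426) and not in siCT cells (log2 0.44 ± 0.27, adjusted p = 0.362), where it was called without the pair (log2 0.48 ± 0.11, adjusted p = 0.00834). Its call in siPRMT1 cells was lost without any 1 of the 6 siPRMT1 libraries and with RLE size factors. The difference between these 2 effects did not pass the test (interaction log2 0.45 ± 0.38, adjusted p = 1).

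ADM, ANKRD37 and P4HA1, the other tested HIF targets, were not called with R5020 over all 12 libraries. ADM, which encodes the vessel-dilating peptide adrenomedullin, changed by log2 0.29 ± 0.33, adjusted p = 0.678 in siPRMT1 cells and by log2 -0.78 ± 0.32, adjusted p = 0.143 in siCT cells. Without the pair, ADM was called lower with R5020 in siCT cells (log2 -0.65 ± 0.11, adjusted p = 0.00179). ANKRD37, a small ankyrin-repeat protein gene often used as a hypoxia marker, stood at 3.47 to 5.87 CPM over the 12 libraries and gave log2 -0.20 ± 0.19, adjusted p = 0.582 in siPRMT1 cells and log2 -0.20 ± 0.19, adjusted p = 0.593 in siCT cells.

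HIF1A itself rose with R5020 and was the 1 called of the 3 HIF subunit genes tested, HIF1A, EPAS1 and ARNT. HIF1A stood at 536, 596 and 537 CPM with R5020 and at 219, 217 and 222 CPM with ethanol in siPRMT1 cells. siCT cells gave 228, 281 and 310.0 CPM with R5020 and 133, 196 and 113 CPM with ethanol. The groups did not overlap in either siRNA. HIF1A rose 2.54-fold in siPRMT1 cells (log2 change 1.34 ± 0.20 SE, adjusted p = 0.000387) and 1.85-fold in siCT cells (log2 change 0.89 ± 0.20 SE, adjusted p = 0.00903). The siCT call of HIF1A was lost with library totals alone (adjusted p = 0.187) and in a fit on the siCT libraries alone. EPAS1, the HIF-2 alpha gene, gave log2 -0.08 ± 0.19, adjusted p = 0.855 in siPRMT1 cells and log2 -0.19 ± 0.19, adjusted p = 0.615 in siCT cells. ARNT, the partner of both, gave log2 -0.22 ± 0.17, adjusted p = 0.493 and log2 -0.29 ± 0.17, adjusted p = 0.307. EGLN3, a prolyl hydroxylase gene that is itself a known HIF target, stood at 7.14, 5.94 and 6.83 CPM with R5020 and at 4.01, 4.15 and 4.27 CPM with ethanol in siPRMT1 cells, and at 8.67, 14.4 and 15.8 CPM with R5020 and 7.74, 8.90 and 4.86 CPM with ethanol in siCT cells. Its siCT groups overlapped by 1 library each way, and it was called there (log2 change 0.84 ± 0.24 SE, adjusted p = 0.0313) and not in siPRMT1 cells (log2 0.68 ± 0.24, adjusted p = 0.0828). Without the pair it was called in both, and the call in siCT cells was lost without siCT R5020 replicate 2 or 3, with library totals alone and in a fit on the siCT libraries alone. Without the pair 1 of the 8 oxygen-sensing genes was called lower with R5020 for each siRNA. EGLN1, EGLN2, VHL and HIF1AN, which encodes an asparaginyl hydroxylase of the HIF alpha subunits, were not called with R5020 for either siRNA over all 12 libraries. Their log2 changes ran from -0.45 for EGLN2 to 0.39 for EGLN1 in siPRMT1 cells and from -0.39 for VHL to 0.36 for EGLN1 in siCT cells.

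**Figure D2:**
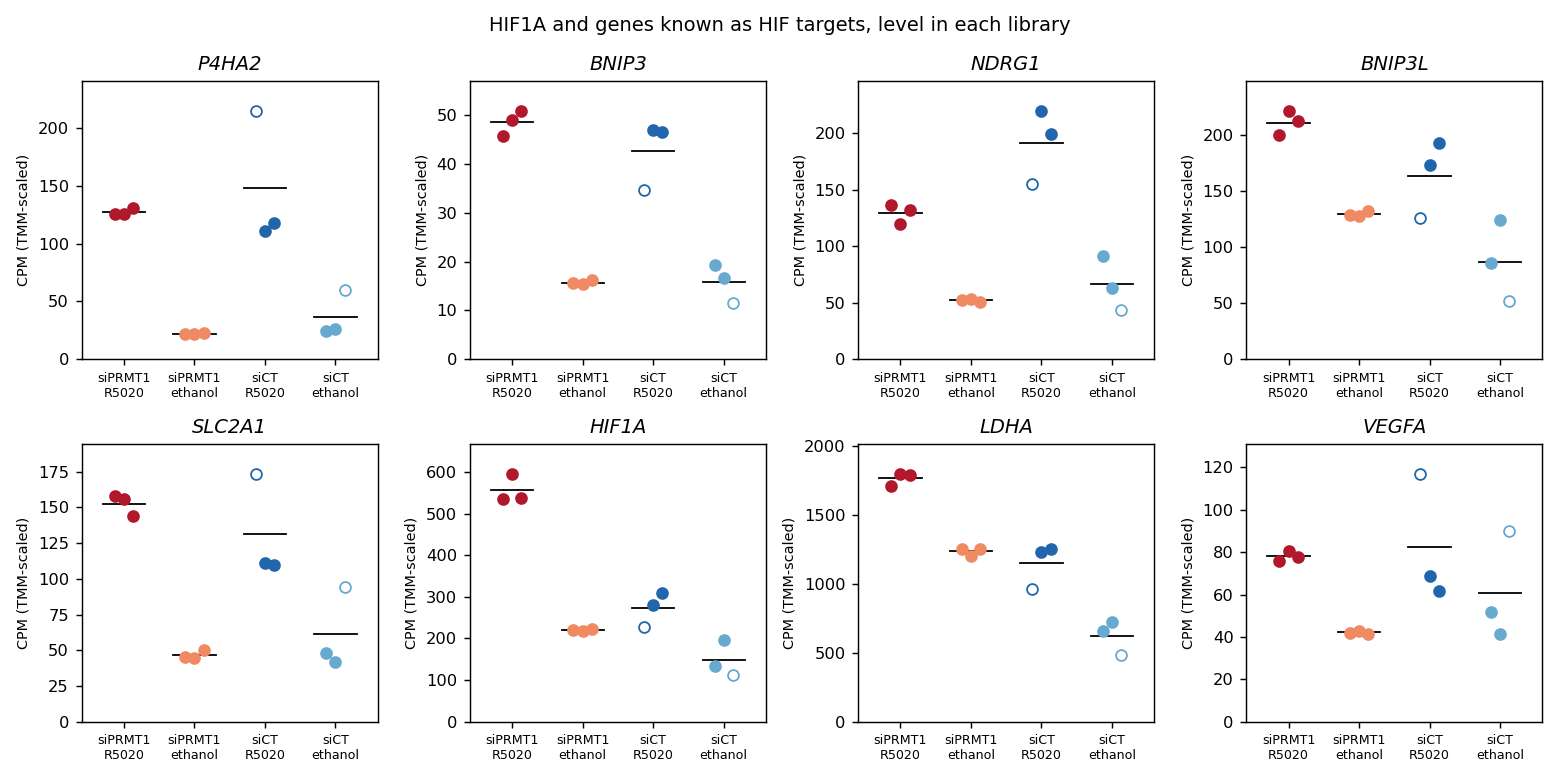
Level in CPM (vertical axes, from 0) of 8 genes in each of the 12 libraries; points are libraries, black lines group means of 3, and open points the pair of siCT libraries with a high mitochondrial share. P4HA2, BNIP3, NDRG1, BNIP3L, SLC2A1, HIF1A and LDHA have each siRNA's R5020 points above its ethanol points, and VEGFA only in siPRMT1 cells.

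Among the transporters, SLC2A1, the widely expressed glucose transporter GLUT1, rose with R5020. SLC2A1 stood at 158, 156 and 144 CPM with R5020 and at 45.1, 44.7 and 50.5 CPM with ethanol in siPRMT1 cells. In siCT cells the values were 174, 111 and 109.8 CPM with R5020 and 48.3, 41.5 and 94.2 CPM with ethanol. The R5020 and ethanol libraries did not overlap for either siRNA, and the library that stood apart was the highest of both siCT groups. SLC2A1 rose 3.26-fold in siPRMT1 cells (log2 change 1.71 ± 0.27 SE, adjusted p = 0.000685) and 2.15-fold in siCT cells (log2 change 1.10 ± 0.27 SE, adjusted p = 0.0149). The siCT call was lost without siCT ethanol replicate 1 and in a fit on the siCT libraries alone. SLC2A3 had 9, 9 and 16 counts with R5020 and 0, 1 and 0 with ethanol in siPRMT1 cells, a 41.9-fold ratio of summed counts (95% counting interval 7.02 to 1701). In siCT cells it had 28, 23 and 18 counts with R5020 and 9, 9 and 12 with ethanol. It was called in siPRMT1 cells (adjusted p = 0.00117) and not in siCT cells (adjusted p = 0.138). Its near-identical copy SLC2A14 had 64 counts against 134 for SLC2A3 over the 12 libraries, so reads of the pair may be split, and with the counts of its pseudogene-named rows added the call was lost (adjusted p = 0.183). The lactate carriers SLC16A1 and SLC16A3 were not called with R5020. SLC16A1, at 2.21 to 5.65 CPM, gave log2 0.55 ± 0.23, adjusted p = 0.139 in siPRMT1 cells and log2 0.71 ± 0.23, adjusted p = 0.0556 in siCT cells, and was called in both without the pair (log2 0.54 ± 0.14, adjusted p = 0.0104 and log2 0.85 ± 0.16, adjusted p = 0.00301, in that order).

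LDHA was the 1 enzyme called higher with R5020 in siCT cells. LDHA stood at 1709, 1803 and 1792 CPM with R5020 and at 1257, 1203 and 1257 CPM with ethanol in siPRMT1 cells. The siCT libraries held 967, 1233 and 1255 CPM with R5020 and 659, 725 and 482 CPM with ethanol. R5020 libraries lay above ethanol libraries for both siRNAs. LDHA rose 1.85-fold in siCT cells (log2 change 0.89 ± 0.19 SE, adjusted p = 0.0074) and was not called in siPRMT1 cells (log2 0.51 ± 0.19, adjusted p = 0.102), where it was called without the pair (log2 0.51 ± 0.06, adjusted p = 6.84e-05). The siCT call was lost with library totals alone (adjusted p = 0.16) and in a fit on the siCT libraries alone. The difference of the effects did not pass the test (interaction log2 -0.38 ± 0.27, adjusted p = 1). In siPRMT1 cells the calls fell on isozymes of phosphofructokinase, the committed step of the pathway. PFKM, the muscle-type isozyme, stood at 5.46, 7.58 and 6.74 CPM with R5020 and 11.9, 11.6 and 12.1 CPM with ethanol in siPRMT1 cells, and at 15.4, 15.0 and 15.5 CPM with R5020 and 20.5, 20.4 and 20.1 CPM with ethanol in siCT cells. Its 4 groups did not overlap, and the libraries that stood apart lay within 1 CPM of their replicates. PFKM fell in siPRMT1 cells (log2 change -0.85 ± 0.14 SE, adjusted p = 0.000768), and its lower level in siCT cells missed the threshold (log2 -0.41 ± 0.14, adjusted p = 0.0674) and was called without the pair (log2 -0.43 ± 0.13, adjusted p = 0.0422). PFKP, the platelet-type isozyme, stood at 76.1, 81.8 and 82.9 CPM with R5020 and 58.0, 57.3 and 51.6 CPM with ethanol in siPRMT1 cells, where it rose (log2 change 0.53 ± 0.13 SE, adjusted p = 0.0107). In siCT cells it stood at 95.1, 81.7 and 88.2 CPM with R5020 and 70.1, 75.8 and 77.9 CPM with ethanol (log2 0.24 ± 0.13, adjusted p = 0.254), also without overlap. The PFKP call in siPRMT1 cells was lost without replicate 3 of either siPRMT1 group, with library totals alone and with no filter on low counts. PFKL, the liver-type isozyme, was not called in any comparison over all 12 libraries.

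The abundant enzymes were tight in siPRMT1 cells and varied widely among the siCT libraries. ALDOA stood at 2717, 2257 and 2452 CPM with R5020 and at 1285, 1373 and 1289 CPM with ethanol in siPRMT1 cells. In siCT cells it stood at 1321, 2209 and 1857 CPM with R5020 and at 1931, 1102 and 762 CPM with ethanol. The siPRMT1 groups were far apart and the siCT groups overlapped. ALDOA missed the threshold in siPRMT1 cells (log2 change 0.91 ± 0.30 SE, adjusted p = 0.0585) and in siCT cells (log2 0.51 ± 0.30, adjusted p = 0.335). Without the pair it was called in siPRMT1 cells (log2 0.91 ± 0.16, adjusted p = 0.00109). GAPDH stood at 941, 899 and 952 CPM with R5020 and at 807, 834 and 813 CPM with ethanol in siPRMT1 cells, against 646, 1085 and 1049 CPM with R5020 and 1305, 833 and 458 CPM with ethanol in siCT cells. Its ethanol replicates in siCT cells spanned 458 to 1305 CPM, a wider range than that of the other 9 libraries together. GAPDH gave log2 0.19 ± 0.31, adjusted p = 0.796 in siPRMT1 cells and log2 0.10 ± 0.31, adjusted p = 0.899 in siCT cells. The siCT value turned to -0.01 without the pair. Each SE rests on a spread estimated over all 12 libraries, and so is not that of the siPRMT1 libraries. In an edgeR fit on the siPRMT1 libraries alone GAPDH was called higher with R5020 (adjusted p = 0.0125). PGK1, the first ATP-forming enzyme, stood at 189, 191 and 184 CPM with R5020 and 158, 163 and 166 CPM with ethanol in siPRMT1 cells, and at 115, 152 and 161 CPM with R5020 and 139, 136 and 80.2 CPM with ethanol in siCT cells. It overlapped between treatments in siCT cells only, and gave log2 0.21 ± 0.20, adjusted p = 0.605 in siPRMT1 cells and log2 0.27 ± 0.20, adjusted p = 0.466 in siCT cells. PGK1 was called higher in siPRMT1 cells without the pair (log2 0.20 ± 0.06, adjusted p = 0.0285), in a fit on the siPRMT1 libraries alone and with quality weights. HK1, GPI, PFKL, ALDOC, TPI1, PGAM1, ENO1, ENO2, PKM and LDHB were called with R5020 for neither siRNA, with log2 changes of -0.02 to 0.45 in siPRMT1 cells and -0.20 to 0.39 in siCT cells.

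**Figure D3:**
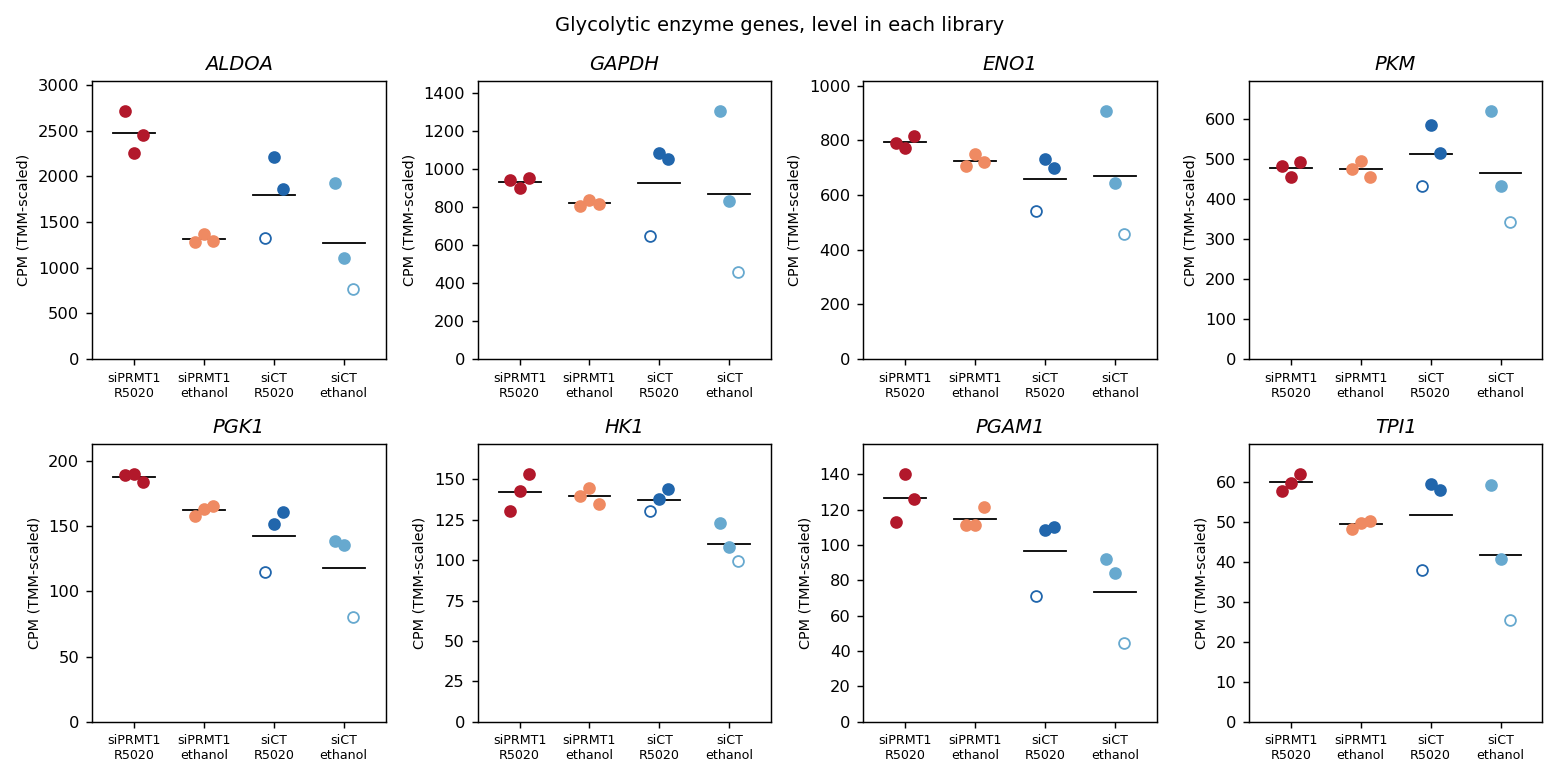
Level in CPM (vertical axes, from 0) of 8 glycolytic enzyme genes in each library; points are libraries, black lines group means of 3, and open points the pair with a high mitochondrial share. In siCT ethanol GAPDH spans 458 to 1305 CPM while the siPRMT1 groups are tight, and the open points are the lowest of their group for all 8 genes.

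The promoters of these genes were read for the HIF core. The letters ACGTG and GCGTG, on both strands and with overlapping matches counted each, were searched in the 250 bases before each RefSeq transcription start (GRCh38.p14), and 43.21% of all 35116 such windows hold at least 1. Of the 31 members with a window, 23 hold a core in at least 1 of their windows, among them 13 of 16 enzymes and 5 of 6 HIF targets. The HIF targets NDRG1, VEGFA and BNIP3L had no window. Of the HIF targets with a window, only BNIP3 and P4HA2 were called with R5020 over all 12 libraries. Members with several windows have more chances, and HK1 and PFKM hold a core in 1 of 7 windows each. Of the 22 members with 1 window, 14 hold a core. The 43.21% counts every window, also those of genes with several, so these shares are not like for like with it. The steroid receptor half-site TGTTCT, or AGAACA on the other strand, is in 12.39% of all windows and in those of 2 members, ALDOA and GPI. The windows of 5 genes are shown: BNIP3, P4HA2 and SLC2A1 rose with R5020 for both siRNAs, while P4HA1, the paralogue of P4HA2, and the enzyme gene PGK1 were not called over all 12 libraries. Capitals mark each match of the core on either strand, so a palindromic core shows as CACGTG.
BNIP3, chr10:131981924-131982173, minus strand, which rose: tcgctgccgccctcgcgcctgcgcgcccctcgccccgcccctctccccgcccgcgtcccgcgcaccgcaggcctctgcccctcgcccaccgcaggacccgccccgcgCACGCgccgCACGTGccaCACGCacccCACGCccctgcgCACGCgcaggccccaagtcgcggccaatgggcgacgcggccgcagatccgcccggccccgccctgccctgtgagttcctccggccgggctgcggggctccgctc
P4HA2, chr5:132227092-132227341, minus strand, which rose: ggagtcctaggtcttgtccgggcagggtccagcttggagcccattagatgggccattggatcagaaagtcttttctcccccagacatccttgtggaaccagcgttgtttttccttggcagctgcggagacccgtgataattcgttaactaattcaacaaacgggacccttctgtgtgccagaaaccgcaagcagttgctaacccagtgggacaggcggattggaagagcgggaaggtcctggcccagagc
P4HA1, chr10:73096867-73097116, minus strand, not called: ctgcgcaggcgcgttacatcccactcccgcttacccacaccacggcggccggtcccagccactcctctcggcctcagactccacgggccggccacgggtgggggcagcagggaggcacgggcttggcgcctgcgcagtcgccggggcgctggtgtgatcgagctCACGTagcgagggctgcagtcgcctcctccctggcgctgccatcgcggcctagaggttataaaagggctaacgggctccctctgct
SLC2A1, chr1:42958869-42959118, minus strand, which rose: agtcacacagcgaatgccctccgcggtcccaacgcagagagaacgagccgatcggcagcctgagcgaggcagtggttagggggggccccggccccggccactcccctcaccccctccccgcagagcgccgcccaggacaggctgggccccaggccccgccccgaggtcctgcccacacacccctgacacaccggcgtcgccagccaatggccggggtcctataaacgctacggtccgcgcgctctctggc
PGK1, chrX:78103998-78104247, plus strand, not called: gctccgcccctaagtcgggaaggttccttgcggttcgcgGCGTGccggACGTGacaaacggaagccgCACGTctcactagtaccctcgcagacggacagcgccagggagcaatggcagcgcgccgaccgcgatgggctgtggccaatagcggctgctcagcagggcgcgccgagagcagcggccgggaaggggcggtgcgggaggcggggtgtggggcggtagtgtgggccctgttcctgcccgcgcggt
The BNIP3 window holds 6 matches and the PGK1 window 3, P4HA1 has 1, and P4HA2 and SLC2A1 have 0 each. A match is a description of the letters, and a window without one says nothing of elements elsewhere.

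Summed over the 16 enzymes, the level was 7247 ± 216 CPM in siPRMT1 R5020, 5290.4 ± 81.8 CPM in siPRMT1 ethanol, 5739.5 ± 1089 CPM in siCT R5020 and 4478 ± 1592 CPM in siCT ethanol (SD, n = 3). The lowest library was siCT ethanol replicate 3 at 2952 CPM, which also had the highest mitochondrial share. The sum over the 9 HIF targets was 618 to 644 CPM in siPRMT1 R5020 and 302 to 306 CPM in siPRMT1 ethanol, and 665 to 730.2 CPM in siCT R5020 and 330.3 to 398 CPM in siCT ethanol. It did not overlap between R5020 and ethanol for either siRNA, whereas the enzyme sum did in siCT cells. Both sums are led by a few genes and do not describe each class as a whole. ALDOA, LDHA, GAPDH and ENO1 made up 73.1% to 83.1% of the enzyme sum per library. BNIP3L, NDRG1, P4HA2 and VEGFA led the HIF targets in siPRMT1 R5020, with means of 211, 129, 128 and 78.1 CPM. In bulk RNA, fewer expressing cells and less RNA per cell cannot be told apart.

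PRMT1 depletion moved these genes in both directions. In ethanol, 4 of the 36 tested genes were higher and 8 lower with siPRMT1 (32.8% of all genes tested were called, 13.6% higher and 19.2% lower). In R5020, 4 were higher and 5 lower (25.7% of all genes called, 11.5% higher and 14.2% lower). These 12 of 36 and 9 of 36 are shares near those of all genes, and so are no result about these genes as a set. Enzymes gave 2 higher and 3 lower of 16 in ethanol, with a median of 0.09, and 2 higher and 1 lower in R5020, with a median of 0.11. HIF targets gave 0 higher and 1 lower of 8 in either treatment, with medians of -0.32 in ethanol and -0.02 in R5020, beside -0.07 and -0.03 over all genes tested. The ethanol median of the HIF targets was -0.15 without the pair and -0.09 with library totals alone. Their R5020 median turned to 0.19 without the pair and to 0.08 with library totals alone. The enzyme medians were -0.11 in ethanol and 0.03 in R5020 without the pair, and 0.19 in ethanol with library totals alone. Without that pair 7 genes were higher and 14 lower in ethanol, where 44.5% of all genes tested were then called, and 6 were higher and 8 lower in R5020, where 38.9% were. Of these, enzymes gave 5 higher and 6 lower in ethanol and 3 higher and 2 lower in R5020, and HIF targets 0 higher and 2 lower in either. With library totals alone 1 was higher and 3 lower in ethanol, and 0 were higher and 3 lower in R5020. That scaling ended the ethanol calls of GPI, PFKM, PFKP, ENO2, EGLN1, EGLN3, HIF1A and HIF1AN and the R5020 calls of GPI, LDHA, EGLN1, EGLN3, HIF1A and HIF1AN. The same 12 libraries enter these and the R5020 comparisons above, so the values are given side by side and not compared.

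**Figure D4:**
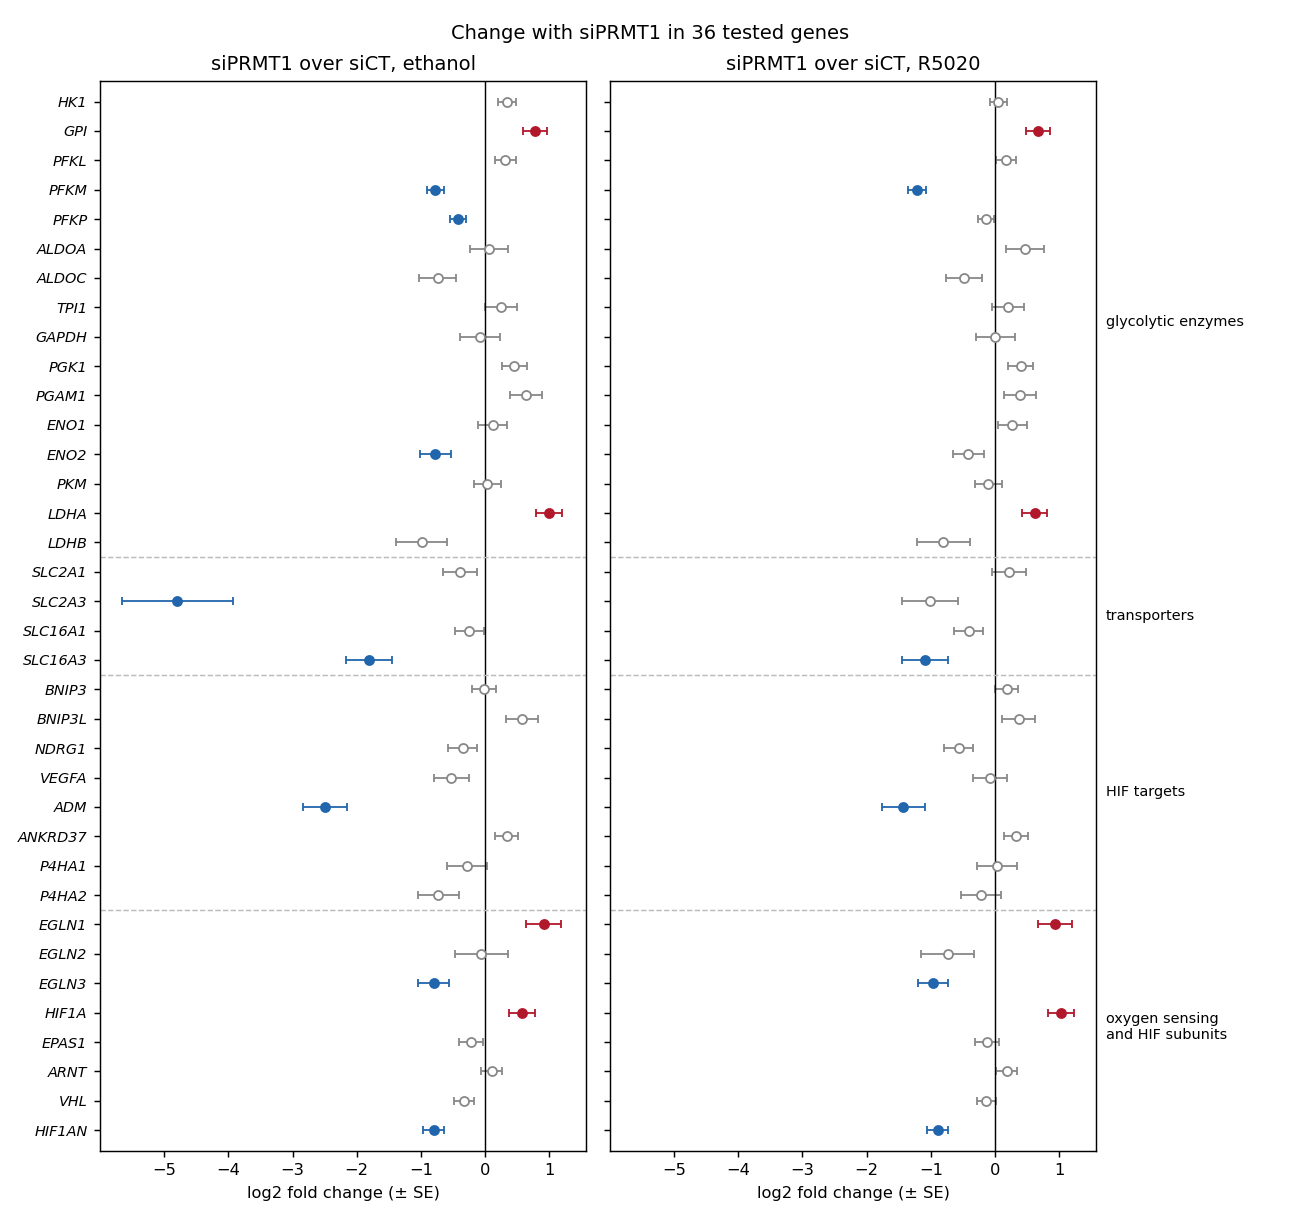
Log2 fold change of siPRMT1 over siCT with its standard error (horizontal axis) for the 36 tested genes (rows, by class), in ethanol on the left and in R5020 on the right. Filled points passed an adjusted p of 0.05 (red higher, blue lower); LDHA, GPI, EGLN1 and HIF1A are red and PFKM, SLC16A3, ADM, EGLN3 and HIF1AN blue on both sides.

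ADM was the HIF target called with siPRMT1. It stood at 9.74, 9.28 and 8.43 CPM in siPRMT1 ethanol, against 34.7, 36.8 and 84.0 CPM in siCT ethanol, and at 10.2, 12.1 and 11.3 CPM in siPRMT1 R5020, against 44.5, 23.5 and 22.5 CPM in siCT R5020. Each siPRMT1 library was below each siCT library, and the highest value of both siCT groups came from the library that stood apart. ADM was 5.65-fold lower in ethanol (log2 change -2.50 ± 0.34 SE, adjusted p = 0.000263) and 2.69-fold lower in R5020 (log2 change -1.43 ± 0.33 SE, adjusted p = 0.00802). It remained lower without the pair (log2 -1.96 ± 0.11, adjusted p = 4.95e-07 in ethanol and log2 -1.03 ± 0.11, adjusted p = 3.86e-05 in R5020). NDRG1 missed the threshold in both (log2 -0.35 ± 0.22, adjusted p = 0.246 and log2 -0.57 ± 0.22, adjusted p = 0.0768) and was called lower in both without the pair (log2 -0.56 ± 0.13, adjusted p = 0.00444 and log2 -0.69 ± 0.13, adjusted p = 0.00151). P4HA2 and BNIP3, which rose with R5020 for both siRNAs, were not called with siPRMT1 in either treatment. P4HA2 gave log2 -0.73 ± 0.32, adjusted p = 0.0941 in ethanol and log2 -0.22 ± 0.31, adjusted p = 0.641 in R5020. BNIP3 gave log2 -0.02 ± 0.18, adjusted p = 0.952 in ethanol and log2 0.18 ± 0.18, adjusted p = 0.468 in R5020. VEGFA gave log2 -0.53 ± 0.27, adjusted p = 0.151 in ethanol and log2 -0.08 ± 0.27, adjusted p = 0.852 in R5020, where its sign turned without the pair and with library totals alone.

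Of the oxygen-sensing genes, HIF1A and EGLN1 were higher and EGLN3 and HIF1AN lower with siPRMT1. HIF1A, with its values given above, was higher in ethanol (log2 change 0.57 ± 0.20 SE, adjusted p = 0.0429) and in R5020 (log2 change 1.03 ± 0.20 SE, adjusted p = 0.00324), where siPRMT1 libraries stood at 536 to 596 CPM and siCT libraries at 228 to 310.0 CPM. The ethanol call held under 10 of 22 alternatives and was lost without siCT ethanol replicate 1, siCT R5020 replicate 2 or 3, or any of the 6 siPRMT1 libraries. EGLN1, the main prolyl hydroxylase gene, stood at 72.8, 71.1 and 81.6 CPM in siPRMT1 ethanol, against 35.6, 57.5 and 26.7 CPM in siCT ethanol, and at 95.1, 112 and 87.1 CPM in siPRMT1 R5020, against 35.0, 54.0 and 65.3 CPM in siCT R5020. The groups did not overlap in either treatment, and EGLN1 was higher by log2 0.91 ± 0.27, adjusted p = 0.0201 in ethanol and log2 0.93 ± 0.27, adjusted p = 0.0219 in R5020. Its ethanol call was lost without siPRMT1 ethanol replicate 3 or siCT ethanol replicate 1, and its R5020 call without replicate 1 or 2 of siPRMT1 R5020 or of siCT R5020. EGLN3 was lower in ethanol (log2 -0.80 ± 0.24, adjusted p = 0.0237) and in R5020 (log2 -0.97 ± 0.24, adjusted p = 0.0113), with each siPRMT1 library below each siCT library of the same treatment. The EGLN3 call in ethanol was lost without any 1 siPRMT1 ethanol library or siCT ethanol replicate 1 or 2, and that in R5020 without siPRMT1 R5020 replicate 2. HIF1AN stood at 27.2, 27.6 and 28.0 CPM in siPRMT1 ethanol, against 57.6, 47.1 and 39.4 CPM in siCT ethanol, and at 23.7, 20.9 and 22.5 CPM in siPRMT1 R5020, against 33.0, 44.5 and 47.2 CPM in siCT R5020. It was lower in both, without overlap (log2 -0.80 ± 0.17, adjusted p = 0.00371 in ethanol and log2 -0.89 ± 0.17, adjusted p = 0.00256 in R5020). EPAS1, ARNT, VHL and EGLN2 were not called with siPRMT1 over all 12 libraries. Without the pair 4 of the 8 oxygen-sensing genes were called lower in ethanol and 3 in R5020, so that some of these genes were then called.

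Among the enzymes, LDHA and GPI were higher and PFKM lower with siPRMT1 in both treatments. LDHA, with its values given above, was 1.99-fold higher in ethanol (log2 change 0.99 ± 0.20 SE, adjusted p = 0.0027) and 1.54-fold higher in R5020 (log2 change 0.62 ± 0.19 SE, adjusted p = 0.0329), without overlap in either. The R5020 call held under 10 of 22 alternatives and was lost without any 1 of the 6 siPRMT1 libraries or of the 3 siCT R5020 libraries. GPI, glucose-6-phosphate isomerase, stood at 135, 136 and 116 CPM in siPRMT1 ethanol, against 90.3, 82.0 and 53.8 CPM in siCT ethanol, and at 134, 137 and 148 CPM in siPRMT1 R5020, against 76.2, 94.2 and 94.0 CPM in siCT R5020. Its siPRMT1 libraries were above the siCT libraries in both, by log2 0.78 ± 0.18, adjusted p = 0.00748 in ethanol and log2 0.66 ± 0.18, adjusted p = 0.0194 in R5020, where the call was lost without siPRMT1 R5020 replicate 2 or 3 or siCT R5020 replicate 1. PFKM fell with siPRMT1 both in ethanol (log2 -0.78 ± 0.14, adjusted p = 0.00137) and in R5020 (log2 change -1.22 ± 0.14 SE, adjusted p = 0.00012). PFKP was lower in ethanol (log2 -0.42 ± 0.13, adjusted p = 0.0221) and not called in R5020 (log2 -0.14 ± 0.13, adjusted p = 0.44). Its ethanol call was lost without any 1 siPRMT1 ethanol library or siCT ethanol replicate 3. ENO2, the neuronal-type enolase, stood at 1.83, 1.41 and 1.88 CPM in siPRMT1 ethanol, against 3.38, 2.48 and 2.90 CPM in siCT ethanol, and was called lower there (log2 -0.78 ± 0.25, adjusted p = 0.0295) under 14 of 22 alternatives, and not without any 1 siPRMT1 ethanol library or siCT ethanol replicate 1 or 3. With R5020 it stood at 2.52, 1.53 and 2.90 CPM in siPRMT1 cells and 3.39, 2.56 and 3.37 CPM in siCT cells, with overlap (log2 -0.41 ± 0.24, adjusted p = 0.224).

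The lactate exporter SLC16A3 stood at 2.46, 2.39 and 2.28 CPM in siPRMT1 ethanol, against 7.44, 4.13 and 13.9 CPM in siCT ethanol, and at 3.00, 3.28 and 3.62 CPM in siPRMT1 R5020, against 9.89, 5.95 and 5.31 CPM in siCT R5020. The siPRMT1 libraries were the lower in both treatments, and the siCT libraries that stood apart were the highest of their groups. SLC16A3 was lower in ethanol (log2 change -1.81 ± 0.36 SE, adjusted p = 0.00298) and in R5020 (log2 change -1.09 ± 0.36 SE, adjusted p = 0.0391). The R5020 call was lost without any 1 of the 6 siPRMT1 libraries or siCT R5020 replicate 1 or 2. SLC2A3 had 0, 1 and 0 counts in siPRMT1 ethanol, against 9, 9 and 12 in siCT ethanol, and was called lower (adjusted p = 0.0016), with a ratio of siCT to siPRMT1 of 37.5 and 6.23 to 1528 as its 95% counting interval. With the counts of its pseudogene-named rows added this call too was lost (adjusted p = 0.0784). SLC2A1 was not called over all 12 libraries (log2 -0.39 ± 0.27, adjusted p = 0.283 in ethanol and log2 0.21 ± 0.27, adjusted p = 0.583 in R5020). Without the pair it was called higher in R5020, at 158, 156 and 144 CPM in siPRMT1 cells against 111 and 109.8 CPM in siCT cells. ALDOA gave log2 0.06 ± 0.30, adjusted p = 0.9 in ethanol and log2 0.46 ± 0.30, adjusted p = 0.27 in R5020, GAPDH log2 -0.08 ± 0.31, adjusted p = 0.859 and log2 0.01 ± 0.31, adjusted p = 0.991, and PGK1 log2 0.46 ± 0.20, adjusted p = 0.0947 and log2 0.40 ± 0.20, adjusted p = 0.158, and none of these was called over all 12 libraries. Without the pair PGK1 was called higher in ethanol (log2 0.25 ± 0.07, adjusted p = 0.0125) and in R5020 (log2 0.28 ± 0.07, adjusted p = 0.00933), and GAPDH lower in ethanol (log2 -0.37 ± 0.13, adjusted p = 0.0414). HK1, PFKL, ALDOC, TPI1, PGAM1, ENO1, PKM and LDHB were not called with siPRMT1 in either treatment over all 12 libraries.

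**Figure D5:**
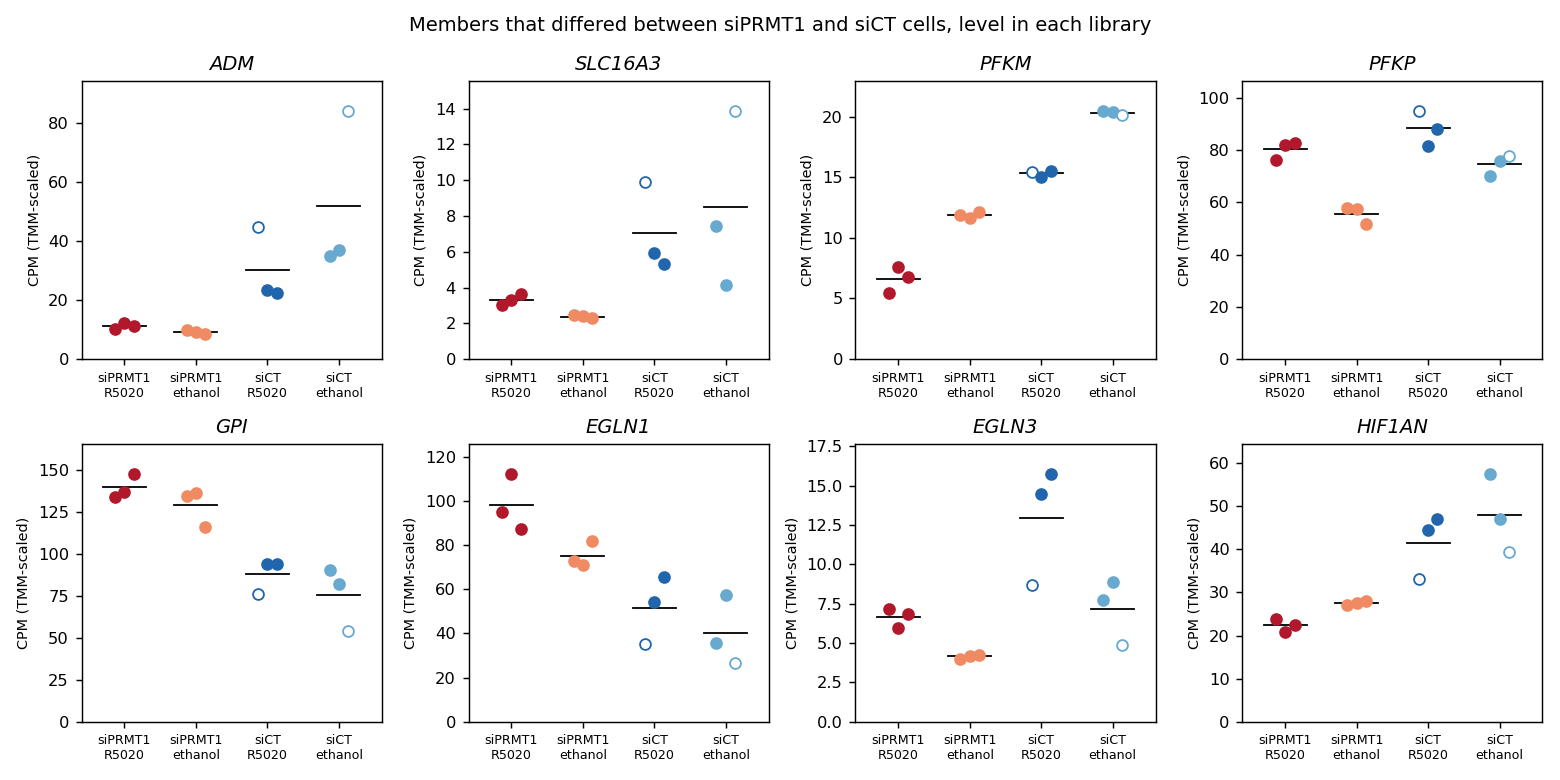
Level in CPM (vertical axes, from 0) of 8 genes called between siPRMT1 and siCT cells, in each library; points are libraries, black lines group means of 3, and open points the pair with a high mitochondrial share. PFKM forms 4 separate groups, with 5.46 to 7.58 CPM in siPRMT1 R5020 the lowest and 20.1 to 20.5 CPM in siCT ethanol the highest, and no siPRMT1 library reaches the lowest siCT library for ADM.

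No difference between the R5020 effects of the 2 siRNAs was called. In the interaction, which subtracts the siCT effect of R5020 from its siPRMT1 effect, edgeR called 0 of 36 members (0.0790% of all genes tested were called, 0.0451% higher and 0.0338% lower), DESeq2 called 0, and 3 members had an unadjusted p under 0.05. These were SLC2A3 (adjusted p = 0.455), which rests on 1 count in siPRMT1 ethanol, ADM (log2 1.07 ± 0.46, adjusted p = 1) and PFKM (log2 -0.44 ± 0.19, adjusted p = 1). Without the pair, when 0.779% of all genes tested were called, ADM passed (log2 0.93 ± 0.15, adjusted p = 0.0181). The enzymes had a median interaction of -0.05 and the HIF targets of 0.26, beside 0.04 over all genes tested, and the enzyme median was 0.03 without the pair. A missed threshold here does not show that the effects were alike: for HIF1A the interaction was 0.46 ± 0.28 (log2, SE).

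Log2 ratios of the CPM of 2 isozyme genes within a library do not depend on library scaling. They are not corrected for length, so they compare groups and not the levels of the 2 genes. The ratio of LDHA to LDHB was 11.86 ± 0.23 in siPRMT1 R5020, 11.43 ± 0.77 in siPRMT1 ethanol, 10.41 ± 0.27 in siCT R5020 and 9.55 ± 0.64 in siCT ethanol (SD, n = 3). LDHB had 7 to 43 counts per library, which limits this ratio. The log2 ratio of ALDOC, the brain-type aldolase, to ALDOA was -5.91 ± 0.10, -5.17 ± 0.12, -4.98 ± 0.09 and -4.37 ± 0.05 in the same order of groups. The ratio of each of the 12 libraries fell near its group's mean, with ranges that did not overlap between R5020 and ethanol for either siRNA, while the level of ALDOA itself overlapped between the siCT groups. The log2 ratio of PFKM to PFKL, examined after the values of PFKM were seen, was -1.34 ± 0.37, -0.34 ± 0.06, 0.07 ± 0.16 and 0.77 ± 0.27. That of PFKP to PFKL was 2.28 ± 0.19, 1.89 ± 0.15, 2.59 ± 0.24 and 2.64 ± 0.34, and that of ENO2 to ENO1 -8.47 ± 0.45, -8.74 ± 0.27, -7.73 ± 0.42 and -7.80 ± 0.43. The ratio of SLC16A3 to SLC16A1 was -0.12 ± 0.17 in siPRMT1 R5020, -0.04 ± 0.14 in siPRMT1 ethanol, 0.52 ± 0.28 in siCT R5020 and 1.40 ± 0.62 in siCT ethanol.

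Further genes of the same pathways gave the setting. Of 27 other glycolysis and pyruvate genes 20 were tested, of which R5020 raised 5 and lowered 1 in siPRMT1 cells (median 0.12) and likewise 5 rose and 1 fell in siCT cells (median 0.07), beside 15.4% and 13.0% of all genes called. PFKFB3, whose product makes the main activator of phosphofructokinase, averaged 97.2 ± 3.14 CPM with R5020 and 15.4 ± 0.649 CPM with ethanol in siPRMT1 cells, a 6.32-fold rise (adjusted p = 2.78e-08). In siCT cells it averaged 138 ± 6.81 CPM with R5020 and 34.6 ± 2.37 CPM with ethanol, a 3.97-fold rise (adjusted p = 2.42e-07; SD, n = 3). PDK4, which restrains the entry of pyruvate into mitochondria's citric acid cycle, rose 7.75-fold in siPRMT1 cells and 8.71-fold in siCT cells (adjusted p = 1.46e-07 and 1.87e-07). HK2, the inducible hexokinase, averaged 52.2 ± 2.303 CPM with R5020 and 28.0 ± 1.68 CPM with ethanol in siPRMT1 cells, and 26.77 ± 1.00 CPM with R5020 and 12.05 ± 0.380 CPM with ethanol in siCT cells. It rose with R5020 in both (log2 0.90 ± 0.12, adjusted p = 0.000106 and log2 1.15 ± 0.12, adjusted p = 1.83e-05), where HK1 was not called. PFKFB4 rose in siPRMT1 cells (log2 1.50 ± 0.17, adjusted p = 2.75e-05), and PFKFB2, another bifunctional regulator of the same step, fell in siCT cells (log2 -0.66 ± 0.11, adjusted p = 0.00118). Both moved the same way for the other siRNA. In siCT cells PFKFB4 averaged 23.2 ± 1.18 CPM with R5020 and 12.7 ± 2.85 CPM with ethanol. In siPRMT1 cells PFKFB2 averaged 24.2 ± 0.211 CPM with R5020 and 34.2 ± 1.50 CPM with ethanol (SD, n = 3).

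With siPRMT1, 7 of the 20 glycolysis genes were higher and 2 lower in ethanol (median 0.39), and 6 were higher and 2 lower in R5020 (median 0.33), beside 32.8% and 25.7% of all genes called. HK2 was higher in both (log2 1.22 ± 0.12, adjusted p = 2.63e-05 in ethanol and log2 0.96 ± 0.12, adjusted p = 0.00016 in R5020). MPC1, a subunit of the mitochondrial pyruvate carrier, was 2.03-fold higher in ethanol and 1.94-fold higher in R5020 (adjusted p = 0.00178 and 0.00318). FBP1, an enzyme of gluconeogenesis, averaged 122 ± 9.21 CPM in siPRMT1 R5020 and 58.9 ± 10.1 CPM in siCT R5020, a 2.07-fold difference (adjusted p = 0.0053; SD, n = 3). In ethanol FBP1 averaged 134 ± 1.47 CPM in siPRMT1 cells and 70.6 ± 25.5 CPM in siCT cells. GPD1, glycerol-3-phosphate dehydrogenase, was higher in ethanol (log2 2.22 ± 0.29, adjusted p = 0.000228), and PFKFB3 was lower there (log2 -1.17 ± 0.12, adjusted p = 5.35e-05). In R5020 the means went the same way for both. GPD1 averaged 2.49 ± 0.193 CPM in siPRMT1 cells and 0.602 ± 0.325 CPM in siCT cells, and PFKFB3 97.2 ± 3.14 CPM and 138 ± 6.81 CPM (SD, n = 3). Without the pair the counts of this list were 8 higher and 4 lower with R5020 in siPRMT1 cells, 7 and 2 in siCT cells, 8 and 4 with siPRMT1 in ethanol, and 9 and 3 in R5020. With library totals alone 3 rose and 0 fell with R5020 for each siRNA, 5 were higher and 1 lower with siPRMT1 in ethanol, and 2 were higher and 0 lower in R5020. The list holds genes of both directions of the pathway, so its counts are no measure of glycolysis.

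Of 40 other genes known as HIF targets 38 were tested, and HK2, PFKFB3, PFKFB4 and PDK1 are in both lists. With R5020, 12 rose and 3 fell in siPRMT1 cells (median 0.22), and 8 rose and 2 fell in siCT cells (median 0.11), against the same 15.4% and 13.0%. KDM4B, a histone demethylase gene, rose 3.19-fold in siPRMT1 cells and 3.32-fold in siCT cells (adjusted p = 1.06e-05 and 9.5e-06). AK4, a mitochondrial adenylate kinase, averaged 139 ± 40.5 CPM with R5020 and 46.0 ± 16.7 CPM with ethanol in siCT cells (log2 1.59 ± 0.27, adjusted p = 0.00117; SD, n = 3), and FUT11, a fucosyltransferase gene, averaged 29.04 ± 1.32 CPM with R5020 and 14.7 ± 0.507 CPM with ethanol in siPRMT1 cells (log2 0.99 ± 0.13, adjusted p = 0.000105). With siPRMT1, 5 were higher and 14 lower in ethanol (median -0.07) and 7 were higher and 6 lower in R5020 (median 0.00165), against 32.8% of all genes called in ethanol (13.6% higher, 19.2% lower) and 25.7% in R5020. PLOD1, a lysyl hydroxylase of collagen, averaged 11.9 ± 0.749 CPM in siPRMT1 ethanol, against 66.9 ± 36.5 CPM in siCT ethanol, and 12.6 ± 1.32 CPM in siPRMT1 R5020, against 59.8 ± 19.5 CPM in siCT R5020 (log2 -2.49 ± 0.33, adjusted p = 0.000248 and log2 -2.25 ± 0.33, adjusted p = 0.000603). KDM3A, another histone demethylase gene, was 1.73-fold higher in R5020 (adjusted p = 0.000976). In ethanol KDM3A averaged 34.5 ± 0.786 CPM in siPRMT1 cells and 20.5 ± 2.52 CPM in siCT cells (SD, n = 3). EPO, the erythropoietin gene, had 26, 23 and 30 counts in siPRMT1 ethanol, against 5, 2 and 1 in siCT ethanol, and 25, 13 and 28 in siPRMT1 R5020, against 1, 1 and 0 in siCT R5020, where the ratio of summed counts was 34.07 (95% counting interval 9.07 to 287). Without the pair that stood apart the counts were 17 higher and 6 lower with R5020 in siPRMT1 cells and 12 and 6 in siCT cells, and 12 and 13 with siPRMT1 in ethanol and 11 and 10 in R5020. With library totals alone they were 7 and 5, 7 and 2, 7 and 6, and 4 and 4, in that order.

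Several members share sequence with other annotated rows, which bears on their levels. Rows named as pseudogenes took 45.1% of the summed counts of PGK1 and its pseudogene row, and for the gene with all its such rows 43.4% for BNIP3, 19.6% for TPI1, 19.1% for GAPDH, 16.7% for PKM and 13.1% for LDHA. Adding those counts to the parent genes left 8 members called with R5020 in siPRMT1 cells and 8 in siCT cells. HIF1A had 113756 counts over the 12 libraries, beside 849 for its antisense gene HIF1A-AS2, and SLC2A1 had 35697 beside 670 for SLC2A1-AS1. No strand setting is given in the sources used here, so reads of such partners cannot be told apart. In the authors' deposited table, at an adjusted p under 0.05, 19 of 36 members were higher and 3 lower with R5020 in siPRMT1 cells, where 33.6% of all its genes with an adjusted p passed, and 6 higher and 0 lower in siCT cells, where 6.61% did. For PRMT1 depletion, 3 members of the authors' deposited table were higher and 6 lower with siPRMT1 in ethanol (19.8% of all its genes), and 6 and 6 in R5020 (30.7%). Of the calls made here, the authors' deposited table shared 9 of 9 with R5020 in siPRMT1 cells, 6 of 8 in siCT cells, 9 of 12 with siPRMT1 in ethanol and 9 of 9 in R5020, each with the same sign.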

How the data were processed

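RNA of T47D cells was sequenced in 12 libraries of 4 groups, described per the labels' protocols as 3 biological replicates each, made with TRIzol and the Lexogen SENSE mRNA kit, so p-values reflect the spread among these libraries and no more. The authors deposited read counts per gene symbol, whole numbers without normalization, for 55765 genes, and a table of their own log2 fold changes and adjusted p-values in 4 comparisons. The submitters' processing notes name the build hg19, DESeq2, HTSeq 0.9.1 and Bowtie2 2.3.2.2; the sources used here give neither annotation nor strand setting.

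Counts were tested here with edgeR 4.0.16 (R 4.3.3): filterByExpr left 17727 genes, library sizes were scaled by TMM, and all 12 libraries entered a model with 1 mean per group. The quasi-likelihood test was used, with p-values adjusted by Benjamini-Hochberg over those genes. SE is the log2 fold change divided by the square root of F. Alternatives used DESeq2 1.42.0 and limma 3.58.1, other scalings, no filter, other sets of libraries, a replicate block and pseudogene counts. Whether the replicate numbers pair the libraries is not known. Correlations of same-numbered deviations ran from -0.67 to 0.28, and so few libraries per group cannot exclude pairing, so the block is an alternative. Exon lengths came from GENCODE (GRCh38) and promoter windows from RefSeq. Intervals on count ratios are exact Clopper-Pearson and cover counting error only. The procedure was also run on simulated data in which each gene had the same dispersion in all groups. The real groups differed in spread, so that run cannot show how the shared estimate affects calls for either siRNA. A fit on the groups compared alone called 46.6% of all genes with R5020 in siPRMT1 cells and 5.29% in siCT cells. The shared estimate gave 15.4% and 13.0%, in that order. Calls with the shared estimate were thus less frequent in siPRMT1 cells and more frequent in siCT cells.

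The members and all gene lists were chosen with earlier results of these data known. Named in full are members called in any comparison with a mean of at least 1 CPM, plus HIF1A, LDHA, PGK1, ALDOA, GAPDH and VEGFA. From the further lists, at most 4 called genes, by adjusted p, are named for each comparison. A gene of these lists named for 1 comparison may thus have changed in others as well.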

Additional observations from a re-analysis of the deposited data

How the results depend on the processing

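Members called numbered 9 with R5020 in siPRMT1 cells, 8 with R5020 in siCT cells, 12 with siPRMT1 in ethanol, 9 with siPRMT1 in R5020 and 0 in the interaction. Without the pair that stood apart they were 16, 14, 21, 14 and 1, in that order, when 29.1%, 19.9%, 44.5%, 38.9% and 0.779% of all genes tested were called. Fitted on the libraries of the groups compared alone, they were 22, 3 and 7 for the first 3 comparisons (46.6%, 5.29% and 19.5% of all genes). Quality weights gave 24 with R5020 in siPRMT1 cells and 21 with siPRMT1 in R5020 (46.1% and 55.7% of all genes). Library totals alone gave 4 (1 higher, 3 lower) with siPRMT1 in ethanol and 3 (0 higher, 3 lower) in R5020 (17.0% and 13.7% of all genes), and moved the median of all genes by -0.17 for R5020 in siPRMT1 cells, 0.18 for siPRMT1 in ethanol and -0.14 in the interaction. Leaving out 1 library gave 7 to 13, 6 to 11, 7 to 15, 4 to 12 and 0 to 0; with siPRMT1 they were 7 in ethanol without siPRMT1 ethanol replicate 3, and 4 and 5 in R5020 without siPRMT1 R5020 replicate 2 and without siCT R5020 replicate 1. With the replicate block they were 8, 7, 11, 8 and 0, without VEGFA, EGLN3, HIF1A and LDHA in the first 4. Of 12 same-numbered pairs 1 correlated above 0.1. The libraries that stood apart, siCT R5020 replicate 1 and siCT ethanol replicate 3, deviated together (correlation 0.81), which bears on the siCT values. Whether the numbers pair the libraries is thus not known.

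The HIF target median minus the enzyme median was 0.64 with R5020 in siPRMT1 cells, 0.44 in siCT cells, -0.40 with siPRMT1 in ethanol, -0.13 in R5020 and 0.31 in the interaction. Leaving out 1 library gave 0.57 to 0.66, 0.22 to 0.68, -0.72 to -0.04, -0.33 to 0.16 and -0.16 to 0.59, so the last 2 changed sign, without siCT R5020 replicate 1 and without siCT ethanol replicate 3. With siPRMT1 it was -0.04 in ethanol and 0.16 in R5020 without the pair.

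Of 38 gene calls examined under the alternatives 13 held under all of them, and 20 were lost with library totals alone. Values not called over all 12 libraries that changed sign follow. GAPDH with R5020 in siCT cells gave -0.0083 without the pair, and without 1 library -0.18 to 0.53, below 0 without siCT ethanol replicate 3 or siCT R5020 replicate 2. ALDOA with siPRMT1 in ethanol gave -0.19 without the pair, -0.075 with quality weights, and without 1 library -0.14 to 0.50, below 0 without siCT ethanol replicate 2 or 3. GAPDH with siPRMT1 in ethanol gave -0.32 to 0.34 without 1 library, above 0 without siCT ethanol replicate 1, and -0.37, called, without the pair. GAPDH with siPRMT1 in R5020 gave -0.0067 with library totals, -0.0064 on its own libraries, -0.19 without the pair, -0.16 with quality weights, -0.0039 with the replicate block, and without 1 library -0.20 to 0.13, below 0 without siCT R5020 replicate 1 or siPRMT1 R5020 replicate 3. VEGFA with siPRMT1 in R5020 gave 0.029 with library totals, 0.27 without the pair and 0.22 with quality weights, and without 1 library -0.25 to 0.26, above 0 without siCT R5020 replicate 1. The cause of these changes was not tested. Depth limits SLC2A3, CA9, LDHB and EPO.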
